A study of Mus musculus with 7 samples.

Results

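The nuclear lamina and LINC genes described here are 10 named genes out of 55367 gene symbols in the files. They are the lamin genes Lmna, Lmnb1 and Lmnb2, the inner nuclear membrane genes Lbr, Emd, Tmpo and Lemd3, the chromatin-binding partner gene Banf1, and the SUN genes Sun1 and Sun2. They were taken by name, with earlier results of these data known. The values are RNA-seq of polyadenylated RNA from G1E-ER4, a line of mouse erythroid progenitors that lacks its own GATA1 and carries a GATA1 and estrogen receptor fusion, which estradiol switches on to begin maturation. There were 3 libraries of cells given 100 nM β-estradiol and 50 µM DTPA together for 24 h, 3 libraries of cells given 100 nM β-estradiol alone for 24 h, called controls here, and 1 library of untreated, non-differentiating cells at 0 h. DTPA is a metal chelator that binds zinc strongly, and the study used it to restrict zinc. All libraries come from 1 cell line, and the 0 h state has no replicate and no DTPA arm.

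The nuclear lamina is a protein meshwork under the inner nuclear membrane, built from A-type lamins, which Lmna encodes as lamins A and C, and B-type lamins, which Lmnb1 and Lmnb2 encode. LBR, emerin, LAP2 and MAN1 are membrane or nucleoplasmic proteins that hold the lamina and chromatin together, and BAF, the product of Banf1, bridges the LEM-domain proteins among them to DNA. SUN proteins cross the inner membrane and bind nesprins in the outer one, and this bridge, the LINC complex, couples the nucleus to the cytoskeleton. During erythroid maturation the nucleus shrinks and condenses before it is expelled, so the envelope of a maturing erythroblast is under rebuilding.

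Values are TPM, which corrects for gene length but gives shares of a library and no absolute amounts. Comparing levels between genes rests on the gene lengths used, which are not given in the sources used here. Depth, estimated from the lowest values, was such that 1 read in a gene of 2 kb is worth 0.0696 to 0.0734 TPM under DTPA, 0.0823 to 0.0857 TPM in the controls and 0.0846 TPM at 0 h. All 11 erythroid markers reached 1 TPM, and their sum was 52940 to 64870 TPM under DTPA, 49030 to 53900 TPM in the controls and 12660 TPM at 0 h. Markers of fibroblasts and endothelium, tissues with strong A-type lamin expression, summed to at most 0.03 TPM under DTPA, 0.07 TPM in the controls and 0.21 TPM at 0 h, with Col1a1, Col3a1, Pdgfrb, Acta2, Dcn and Cdh5 at 0 in every library. The erythroid sum was led by the globin gene Hbb-bs, with means of 41300 TPM under DTPA, 29510 TPM in the controls and 5776 TPM at 0 h. Over all tested genes 21.7% rose and 36.4% fell under DTPA relative to control. Within the erythroid list, 3 genes rose, 7 fell and 1 was not called. Those that rose were Hbb-bs, Alas2 and Nfe2, by 0.48, 0.39 and 0.19 on the log2 scale. Among those that fell was Slc4a1, the band 3 anion exchanger, at 73 TPM under DTPA, 770 TPM in the controls and 45.6 TPM at 0 h. Megakaryocyte markers summed to 42.4 to 51.5 TPM under DTPA, 9.08 to 12.7 TPM in the controls and 39.5 TPM at 0 h, with Ppbp, Gp1bb, Gp6 and Vwf at 0 throughout, and the 3 that could be tested (Itgb3, Gp1ba and Gp9) rose under DTPA relative to control, of which Gp9 lost its call without control replicate 2 or 3, without DTPA replicate 3 and with no filter on low values (adjusted p = 0.0531 to 0.0713). The part of these shifts in the values below was not tested. Myeloid markers summed to at most 2.79, 3.19 and 14.4 TPM and lymphoid markers to at most 2.82, 1.06 and 0.21 TPM under DTPA, in the controls and at 0 h. In bulk RNA, fewer cells of a type and less of an RNA per cell cannot be told apart.

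These genes followed 4 courses. Lmnb1, Tmpo, Banf1 and Emd were lower in the controls at 24 h than at 0 h and lower again under DTPA. Lmna and Sun1 were higher in the controls than at 0 h and lower under DTPA than in the controls. Sun2 was higher in both 24 h groups than at 0 h and differed by 0.19 on the log2 scale between them. Lbr and Lemd3 lay within a log2 fold change of 0.30 of 0 h in the controls and were lower under DTPA than in the controls. Of the 9 genes tested for DTPA against control (limma on log2(TPM + 1), adjusted p under 0.05), 8 were lower and 1 was higher, where 36.4% of all 11147 tested genes were called lower and 21.7% higher. The median log2 fold change was -0.86 over the 9 genes and -0.09 over all tested genes. DTPA and control libraries did not overlap in any of the 9 genes, nor in 65% of all tested genes.

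**Figure D1:**
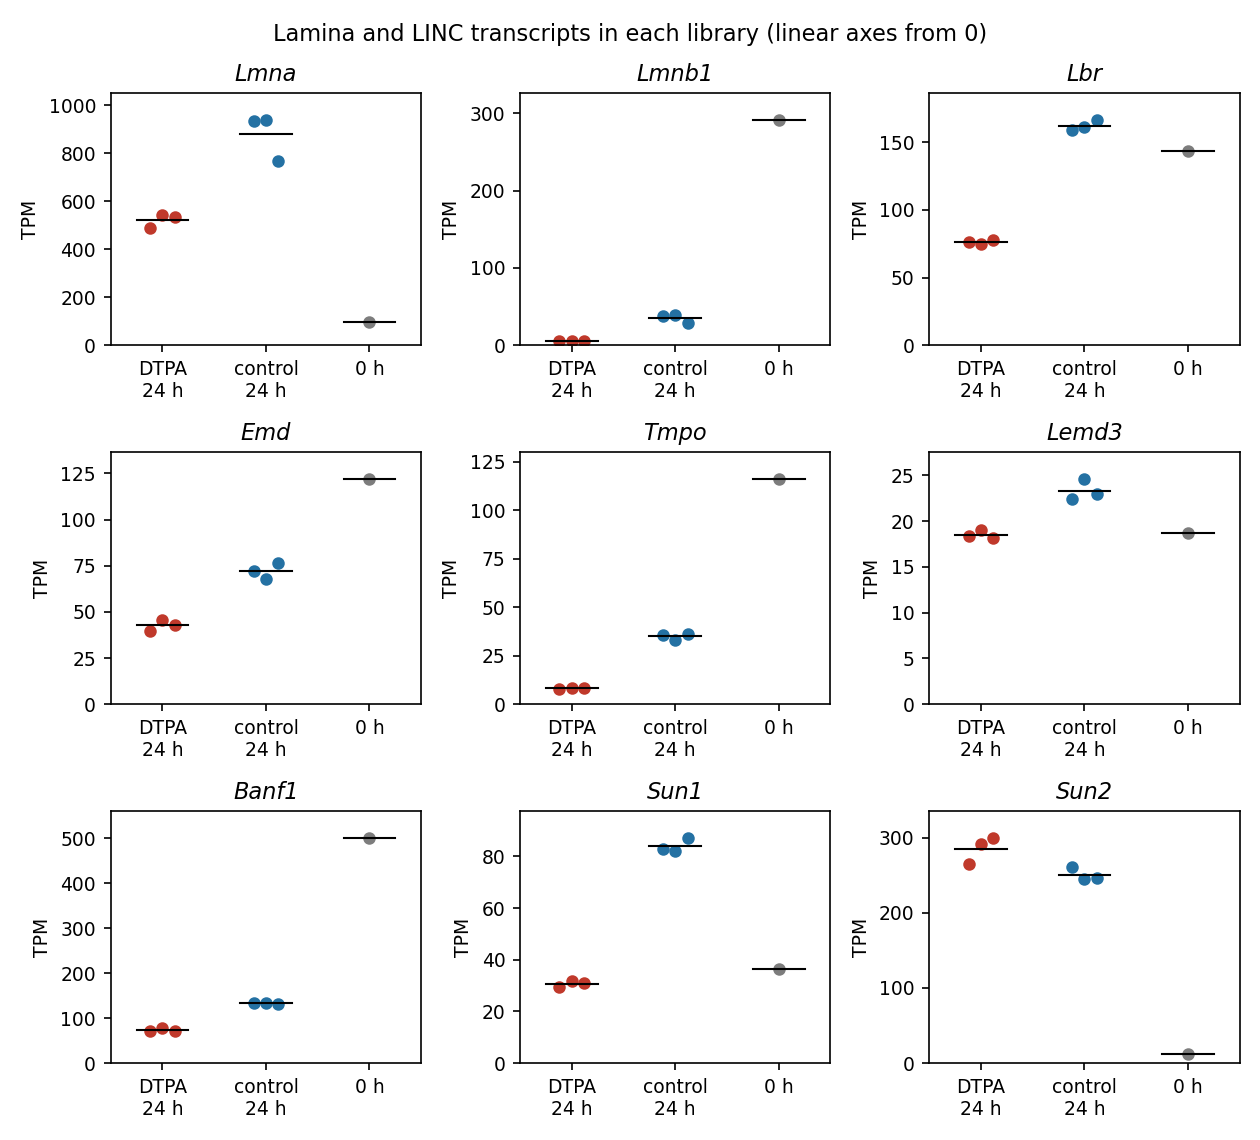
TPM of 9 genes in each library, on linear axes that start at 0, with points for libraries and lines for group means (3 DTPA and 3 control libraries at 24 h, 1 library at 0 h). Lmnb1, Tmpo, Banf1 and Emd step down from 0 h through control to DTPA, Lmna and Sun1 peak in the controls, and Sun2 is high in both 24 h groups; Lmnb2, at 0 to 0.07 TPM, is not drawn.

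Lmna, the A-type lamin gene, was the most abundant of the 10 in both 24 h groups. Its level was 487.44, 541.67 and 534.44 TPM in the DTPA libraries, 934.9, 936.32 and 768.52 TPM in the controls, and 97.47 TPM at 0 h. All DTPA libraries lay below all controls and all of both groups lay above 0 h, and the third control was the lowest of its group. The mean was 521 ± 29.5 TPM under DTPA and 880 ± 96.5 TPM in the controls (SD, n = 3 each), and limma gave a change of -0.75 ± 0.08 (log2, SE; adjusted p = 0.000179). Against 0 h, Lmna rose with differentiation, with log2 fold changes of 2.41 ± 0.13 under DTPA (adjusted p = 1.24e-05) and 3.16 ± 0.13 in the controls (adjusted p = 5.52e-06), which is rank 147 from the highest of 11906 tested genes in the controls. The gene is on the minus strand of chromosome 3, from 88480147 to 88509956 (GRCm38, also called mm10, GENCODE M21), and its row sums the transcripts of lamins A and C, which cannot be separated here.

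Lmnb1, the B-type lamin gene that these cells express, ran the other way with differentiation and fell further under DTPA than any other of the 9 tested. It stood at 4.89, 5.3 and 5.17 TPM in the DTPA libraries, against 38.16, 38.49 and 28.88 TPM in the controls, and at 290.83 TPM at 0 h. The 3 groups were far apart, and the control with the least Lmna, replicate 3, also had the least Lmnb1. The estimated reads behind these values were 101 to 110 per DTPA library, 500 to 687 per control and 5090 at 0 h. DTPA against control gave a log2 fold change of -2.55 ± 0.11 (adjusted p = 1.56e-06), a mean TPM 6.87-fold lower, at rank 66 from the lowest of all tested genes. The control-to-0 h change was -3.02 ± 0.17 (adjusted p = 1.78e-05), and DTPA against 0 h gave -5.58 ± 0.17 (adjusted p = 1.48e-06), at rank 11 from the lowest of 12016 genes. Lmnb1 lies on chromosome 18 from 56707813 to 56753424 on the plus strand.

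Lmnb2, the other B-type lamin gene, was listed at 0 TPM in 5 of the 7 libraries. The exceptions were DTPA replicates 2 and 3 with 0.07 and 0.06 TPM, an estimated 2 reads each. At these depths 3 reads in this gene are worth 0.0974 to 0.12 TPM, so all 7 values lie under the level that a count of 0 allows. It was too low to be tested.

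The lamin transcripts thus changed in make-up as well as in amount. At 0 h Lmnb1 made up 74.9% of the summed lamin TPM and Lmna 25.1%. Lmna made up 99 ± 0.01% of it under DTPA and 96.2 ± 0.18% in the controls (SD, n = 3 each). The ratio of Lmna to Lmnb1 was 99.7 to 103 under DTPA, 24.3 to 26.6 in the controls and 0.335 at 0 h. The summed lamin TPM was 526 ± 29.7 under DTPA, 915 ± 102 in the controls and 388 at 0 h, so the total was lower under DTPA than in the controls while the share of the A-type gene was higher. These ratios are descriptions within libraries, with no test.

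**Figure D2:**
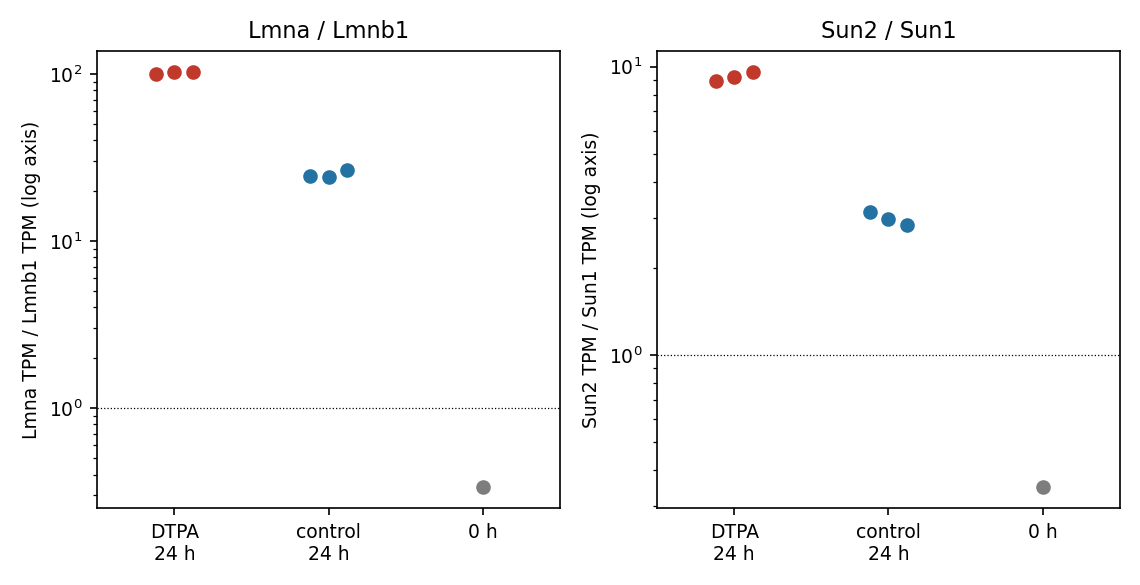
Ratios of TPM within each library on log axes, Lmna to Lmnb1 at the left and Sun2 to Sun1 at the right, with 1 point per library and a dotted line at 1. Both ratios are below 1 at 0 h, 24.3 to 26.6 and 2.83 to 3.14 in the controls, and 99.7 to 103 and 8.93 to 9.62 under DTPA.

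Among the membrane proteins, LBR is a B-type lamin receptor that tethers heterochromatin and is also a sterol reductase. Lbr was at 76.03, 74.48 and 77.71 TPM in the DTPA libraries, against 158.88, 161.55 and 166.1 TPM in the controls, and at 143.59 TPM at 0 h. It lay close to its 0 h level in the controls and well under it in every DTPA library. It fell under DTPA by 1.08 ± 0.04 on the log2 scale (adjusted p = 5.52e-07). Control against 0 h gave 0.17 (adjusted p = 0.0106) and DTPA against 0 h gave -0.91 (adjusted p = 7.19e-06), both under the minimum log2 fold change of 1 set for comparisons with the single 0 h library. Lbr is on the minus strand of chromosome 1, from 181815335 to 181843046.

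Emd, Tmpo and Lemd3 encode emerin, LAP2 and MAN1, the LEM-domain proteins of this set, and they changed by very different amounts. Tmpo, whose row sums the nucleoplasmic and membrane isoforms of LAP2, had 8.05, 8.56 and 8.15 TPM in the DTPA libraries, 35.59, 33.3 and 36.27 TPM in the controls and 115.75 TPM at 0 h. Its groups were separate at each step, and its log2 fold change was -1.96 ± 0.06 for DTPA against control (adjusted p = 2.6e-07, rank 145 from the lowest) and -1.70 ± 0.07 for control against 0 h (adjusted p = 5.96e-06). For DTPA against 0 h it was -3.66 (adjusted p = 3.95e-07), a mean TPM 14-fold lower. The gene is on the minus strand of chromosome 10, from 91147571 to 91181315.

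Emd had 39.5, 45.68 and 42.8 TPM with DTPA, 72.22, 68.05 and 76.32 TPM in the controls and 121.75 TPM at 0 h. Each group lay below the next without overlap. The log2 fold change was -0.75 ± 0.07 for DTPA against control (adjusted p = 5.57e-05) and also -0.75 ± 0.10 for control against 0 h (adjusted p = 0.000655), which is under the minimum fold, while DTPA against 0 h gave -1.49 (adjusted p = 2.63e-05). Emd lies on the X chromosome from 74254687 to 74261548 on the plus strand.

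Lemd3, which binds SMAD proteins and dampens TGF-β signalling besides its role at the lamina, changed little. It had 18.35, 19.08 and 18.15 TPM in the DTPA libraries, 22.44, 24.56 and 22.98 TPM in the controls and 18.72 TPM at 0 h. The 0 h value lay inside the range of the DTPA libraries and below all controls. DTPA against control gave -0.32 ± 0.06 on the log2 scale (adjusted p = 0.00203), and control against 0 h gave 0.30 (adjusted p = 0.00963), under the minimum fold. DTPA against 0 h gave -0.01 (adjusted p = 0.861) on the deposited scale and 0.07 to 0.38 under 3 other scalings. Lemd3 is on the minus strand of chromosome 10, from 120923413 to 120979332.

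Banf1, the gene of BAF, which gathers chromatin and membrane as the envelope reforms after mitosis, was the most abundant of the 10 at 0 h with 500.05 TPM. It had 70.68, 77.25 and 70.53 TPM in the DTPA libraries and 134.38, 133.98 and 130.7 TPM in the controls. The drop from 0 h was large in both 24 h groups and larger under DTPA. It fell by 0.86 ± 0.05 on the log2 scale for DTPA against control (adjusted p = 4.46e-06), by 1.90 ± 0.06 for control against 0 h (adjusted p = 2.4e-06) and by 2.76 for DTPA against 0 h (adjusted p = 5.44e-07). Banf1 is on the minus strand of chromosome 19, from 5364638 to 5367168. It shares 428 bp of exon, 28.6% of its exon length, with Eif1ad on the other strand, and the strand setting of the counting is not given in the sources used here. Eif1ad stood at 38.6 TPM under DTPA, 35.5 TPM in the controls and 107 TPM at 0 h, as means. It was lower at 24 h than at 0 h, as Banf1 was, while its mean under DTPA was slightly above that of the controls; its part in the Banf1 values was not tested.

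The SUN genes encode the inner side of the LINC bridge, and they parted under DTPA. Sun1 had 29.62, 31.68 and 31.06 TPM in the DTPA libraries, 82.86, 82.11 and 86.93 TPM in the controls and 36.58 TPM at 0 h. Every DTPA library was below the 0 h library and every control was above it. The log2 fold change was -1.42 ± 0.05 for DTPA against control (adjusted p = 3.86e-07, a mean TPM 2.73-fold lower) and 1.18 ± 0.06 for control against 0 h (adjusted p = 1.06e-05). DTPA against 0 h gave -0.24 (adjusted p = 0.0091), under the minimum fold, and 0.01 and 0.04 with median-of-ratios and quantile scaling. Sun1 lies on chromosome 5 from 139200637 to 139249840 on the plus strand.

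Sun2 showed the strongest rise with differentiation of the 10. It had 264.6, 292.02 and 298.92 TPM with DTPA, 260.31, 244.52 and 246.18 TPM in the controls and 12.74 TPM at 0 h. The 24 h groups lay next to each other, with the lowest DTPA library just above the highest control, and both were far above 0 h. The log2 fold changes against 0 h were 4.38 ± 0.08 under DTPA (adjusted p = 3.45e-07) and 4.19 ± 0.08 in the controls (adjusted p = 4.77e-07, rank 52 from the highest). DTPA against control gave 0.19 ± 0.05 (adjusted p = 0.0207), a small rise whose call was lost without control replicate 2 or 3 (adjusted p = 0.0695 and 0.0562), without DTPA replicate 2 or 3 (0.065 and 0.0734) and with replicate number as a block (0.0521). The change was 0.22 to 0.34, and passed, under the 3 other scalings. Sun2 is on the minus strand of chromosome 15, from 79724070 to 79742536.

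The ratio of Sun2 to Sun1 was therefore 8.93 to 9.62 under DTPA, 2.83 to 3.14 in the controls and 0.348 at 0 h. The sum of both was 316 ± 19.1 TPM under DTPA and 334 ± 8.37 TPM in the controls (SD, n = 3 each), and its ranges, 294 to 330 and 327 to 343 TPM, overlap. At 0 h the sum was 49.3 TPM.

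Because Sun1 and Sun2 parted while Tmpo and Lbr both fell under DTPA, the 250 bases before the first listed RefSeq start of these 4 genes (GRCm38.p6) are shown, read in the direction of the gene. Capitals mark matches to any of 4 short motifs, searched on both strands. They are the CCAAT box (CCAAT), the GATA core (AGATAA or TGATAA), an E2F core (GCGGGAA or GCGCGAA) and the cell cycle homology element (TTTGAA). The windows are chr5:139200387-139200636 on the plus strand for Sun1, and on the minus strand chr15:79742537-79742786 for Sun2, chr10:91171620-91171869 for Tmpo and chr1:181842402-181842651 for Lbr.
Sun1: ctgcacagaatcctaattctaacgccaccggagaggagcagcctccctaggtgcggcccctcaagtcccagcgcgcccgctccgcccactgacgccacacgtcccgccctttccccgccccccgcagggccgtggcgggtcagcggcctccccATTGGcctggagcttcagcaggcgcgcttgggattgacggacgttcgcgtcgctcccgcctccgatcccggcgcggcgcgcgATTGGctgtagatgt
Sun2: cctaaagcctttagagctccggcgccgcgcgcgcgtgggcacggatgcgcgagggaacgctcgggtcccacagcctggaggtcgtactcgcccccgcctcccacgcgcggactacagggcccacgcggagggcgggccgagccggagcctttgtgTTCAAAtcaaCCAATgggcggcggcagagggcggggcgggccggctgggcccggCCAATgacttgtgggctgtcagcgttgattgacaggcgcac
Tmpo: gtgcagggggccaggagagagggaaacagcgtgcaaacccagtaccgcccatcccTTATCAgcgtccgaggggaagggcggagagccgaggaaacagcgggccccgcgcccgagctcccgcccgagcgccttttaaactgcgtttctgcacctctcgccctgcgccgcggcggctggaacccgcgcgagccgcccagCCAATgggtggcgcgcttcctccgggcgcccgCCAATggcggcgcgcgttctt
Lbr: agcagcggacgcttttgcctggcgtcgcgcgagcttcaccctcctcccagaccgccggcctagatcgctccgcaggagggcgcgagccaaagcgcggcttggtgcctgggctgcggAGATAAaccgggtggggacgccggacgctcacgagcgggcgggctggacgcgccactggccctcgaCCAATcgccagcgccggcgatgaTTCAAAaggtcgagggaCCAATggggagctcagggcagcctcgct

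Each of the 4 windows holds 2 CCAAT boxes, at 97 and 15, 85 and 41, 53 and 21, and 68 and 28 bases before the start, counted to the far end of the box, in Sun1, Sun2, Tmpo and Lbr. Of 32851 mouse promoter windows of the same length, 33.8% hold at least 1 CCAAT box, and the share with 2 was not counted. A GATA core stands at 195 bases before the start in Tmpo and at 134 in Lbr, with 16.6% of all windows holding one, and TTTGAA stands at 95 in Sun2 and 45 in Lbr, with 16% of all windows. No E2F core is in these 4 windows, and 5% of all windows hold one. Those of Banf1 and Lemd3 do, at 80 and 147 bases before the start, and so does the window of another listed start of Tmpo, at 194 and 83. That other Tmpo window also holds TTTGAA, at 28 bases, and has no CCAAT box and no GATA core. In these windows the paralogues Sun1 and Sun2 both have a pair of CCAAT boxes and differ in the TTTGAA match, but the window of the other listed start of Sun1 holds 1 CCAAT box, at 209 bases. The table of promoters covered 9 of the 10 genes and 14 starts, and a match is a description of letters, not a site in use.

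The order of levels at 0 h was unlike that of either 24 h group. At 0 h the order from the top was Banf1, Lmnb1, Lbr, Emd, Tmpo, Lmna, Sun1, Lemd3, Sun2 and Lmnb2. Under DTPA it was Lmna, Sun2, Lbr, Banf1, Emd, Sun1, Lemd3, Tmpo, Lmnb1 and Lmnb2, and in the controls Lmna, Sun2, Lbr, Banf1, Sun1, Emd, Lmnb1, Tmpo, Lemd3 and Lmnb2. Neighbours whose libraries overlapped were Lbr and Banf1 under DTPA (74.48 to 77.71 and 70.53 to 77.25 TPM) and Lmnb1 and Tmpo in the controls (28.88 to 38.49 and 33.3 to 36.27 TPM). Lmna alone held 49.1 ± 0.33% of the summed TPM of the 10 genes under DTPA, 52.4 ± 2.83% in the controls and 7.29% at 0 h.

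Against 0 h, where a call needed an adjusted p under 0.05 and a log2 fold change of at least 1 in size, the genes went in both directions. In the controls 3 rose (Lmna, Sun1, Sun2), 3 fell (Lmnb1, Tmpo, Banf1) and 3 were not called, against 15.1% of 11906 genes called higher and 24.3% called lower. Under DTPA 2 rose (Lmna, Sun2), 4 fell (Lmnb1, Tmpo, Banf1, Emd) and 3 were not called, against 15.7% of 12016 genes called higher and 27.6% called lower. By adjusted p alone, 9 of the 9 passed in the controls and 8 of the 9 under DTPA, against 74.4% and 76.5% of all tested genes, so that count says little about these genes. The 3 comparisons share libraries, and the changes are set side by side without a test between them.

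**Figure D3:**
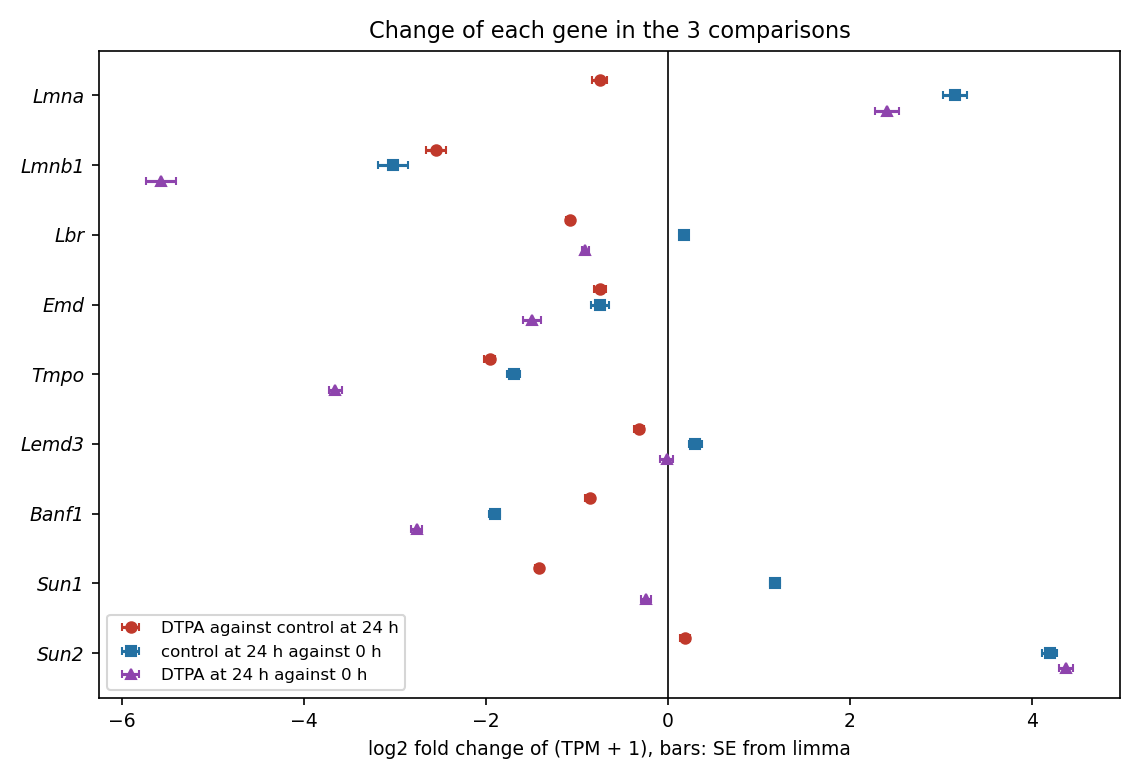
Log2 fold changes on the log2(TPM + 1) scale with SE bars from limma for 9 genes, as circles for DTPA against control, squares for control against 0 h and triangles for DTPA against 0 h. Lmnb1, Tmpo, Banf1 and Emd are left of 0 in all 3 comparisons, Lmna and Sun1 change side between control against 0 h (3.16 and 1.18) and DTPA against control (-0.75 and -1.42), and Sun2 stays right of 0.

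The deposited scale itself moves the centre of all genes. The median log2 fold change of all tested genes was -0.09 for DTPA against control, -0.22 for control against 0 h and -0.30 for DTPA against 0 h, and 0.01, -0.01 and -0.01 with quantile scaling. Of all calls for DTPA against control, 37.3% were upward as deposited, 48.3% after median-of-ratios scaling and 50.6% with quantile scaling, and for DTPA against 0 h 36.3%, 47.2% and 49%. For control against 0 h 38.3% were upward as deposited and 48.6% with quantile scaling. Set against the median of all genes, the DTPA-against-control changes were -2.46 for Lmnb1, -1.87 for Tmpo, -1.33 for Sun1, -0.99 for Lbr, -0.77 for Banf1, -0.66 for Lmna, -0.66 for Emd, -0.23 for Lemd3 and 0.28 for Sun2. Their directions and calls were the same under all 3 scalings.

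Cell cycle genes fell under DTPA, as 8 of the 9 tested lamina and LINC genes did, while Sun2 did not. All 15 S phase genes and all 15 G2 and mitosis genes of the lists fell under DTPA relative to control, with medians of -1.82 and -2.88 on the log2 scale. Over all tested genes 36.4% fell, and the median was -0.09. The S phase genes summed to 280 to 291 TPM under DTPA, 1268 to 1326 TPM in the controls and 4218 TPM at 0 h. The G2 and mitosis genes summed to 347 to 375 TPM under DTPA, 2270 to 2516 TPM in the controls and 2072 TPM at 0 h. In the controls the S phase sum was lower than at 0 h, as Lmnb1, Tmpo, Banf1 and Emd were, while Lmna, Sun1 and Sun2 were higher. The G2 and mitosis sum was not lower. The part of the cell cycle in the lamina values was not tested.

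The genes with the most similar course were then sought. Over the 7 libraries, with each gene's log2(TPM + 1) centred on its own mean, the nearest of 8871 other genes that averaged 5 TPM or more to Lmnb1 were Mcm6, a subunit of the replicative helicase, Ankle1, a LEM-domain nuclease of blood cells, and Uhrf1, which maintains DNA methylation, at root mean square distances of 0.262, 0.343 and 0.37. Mcm6 averaged 7.86 TPM under DTPA, 70.3 TPM in the controls and 490 TPM at 0 h. Nearest to Lmna were Hmox1, the heme-degrading oxygenase, Fam83d, a spindle protein, and Dnajb2, a cochaperone, at distances of 0.0935, 0.0994 and 0.108. Hmox1 averaged 66.1 TPM under DTPA, 107 TPM in the controls and 10.5 TPM at 0 h. Lmnb2, flat near 0, was nearest to genes that barely varied (Csnk2b, Clk3 and Cspp1, at 0.0323 to 0.0348). The likeness follows mainly the 3 group levels, so many genes can be near.

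Partners of the SUN proteins were split under DTPA. The list held 14 genes for nesprins, other SUN proteins and torsins with their cofactors. Of these, 8 were tested for DTPA against control, and 4 rose, 2 fell and 2 were not called (median 0.18). Over all 11147 tested genes, 21.7% rose and 36.4% fell (median -0.09). The nesprin genes Syne1 and Syne2, which reach actin, were under 1 TPM at 24 h, and Syne2 had at most 0.01 TPM in any library. Syne3, which encodes a nesprin that links to the intermediate filament linker plectin, was the leading nesprin transcript, with 43.6 ± 2.21 TPM under DTPA, 45.9 ± 2.62 TPM in the controls and 7.9 TPM at 0 h, and it rose by 2.40 in control against 0 h (adjusted p = 3.27e-06). Syne4 had 1.76 ± 0.37 TPM under DTPA and 0.823 ± 0.16 TPM in the controls (adjusted p = 0.02).

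Over all tested genes 21.7% rose and 36.4% fell under DTPA. Among torsins and their activators, part of the list of SUN partners, 3 rose, 2 fell and Tor1a was not called (-0.09, adjusted p = 0.174). Those that fell, named after their values were seen, were Tor1aip2, whose product activates torsins at the endoplasmic reticulum, by 0.41 (adjusted p = 5.08e-05), and the torsin gene Tor1b by 0.40 (adjusted p = 0.000592). Tor1aip1, whose product LAP1 activates torsins, rose to 25.4 ± 1.27 TPM under DTPA, against 17.6 ± 0.98 TPM in the controls (adjusted p = 0.000346), and Tor2a to 16.3 ± 0.57 TPM, against 10.9 ± 0.67 TPM (adjusted p = 0.000308). Tor3a had 2.66 ± 0.26 TPM under DTPA and 1.71 ± 0.22 TPM in the controls (adjusted p = 0.0244). The call of Syne4 was lost without control replicate 2 or 3 and without DTPA replicate 2 or 3 (adjusted p = 0.0527 to 0.0821), and that of Tor3a when control replicate 1 or 2, or DTPA replicate 1 or 3, was left out (0.0594 to 0.0826), and both with the replicate block (0.0535 and 0.0509). In control against 0 h, Tor1aip2 rose by 1.82 (adjusted p = 6.84e-07), while Tmem201, which encodes the inner membrane protein SAMP1, and Syne1 fell by 2.74 and 1.58. The change of Syne1 was -0.64, under the minimum fold, with a pseudocount of 5.

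Other inner membrane and LEM-domain genes were split under DTPA. Of 10 tested, 3 rose, 4 fell and 3 were not called (median -0.06). Over all tested genes 21.7% rose and 36.4% fell (median -0.09), so these counts say little about this list. Ankle1 fell to 0.713 ± 0.35 TPM under DTPA, against 6.54 ± 0.65 TPM in the controls (adjusted p = 3.56e-05), and had 44.6 TPM at 0 h. Lrrc59 fell by 0.99 (adjusted p = 8.78e-07), and Nemp1, an inner membrane protein gene, by 0.91 (adjusted p = 1.79e-05). Tmem120b had 51.2 ± 1.69 TPM under DTPA, 94.1 ± 3.38 TPM in the controls and 3.38 TPM at 0 h, a course like that of Lmna, with a fall of 0.87 under DTPA (adjusted p = 3.95e-06) and a rise of 4.44 in control against 0 h (adjusted p = 2.12e-07).

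Genes for prelamin processing were also split. Of 7 tested, 1 rose, 3 fell and 3 were not called under DTPA (median -0.12). Over all tested genes 21.7% rose and 36.4% fell (median -0.09), so these counts say little about this list. Zmpste24, the zinc metalloprotease that makes the last cuts in prelamin A, fell by 0.61 to 13.3 ± 0.02 TPM under DTPA, against 20.8 ± 0.18 TPM in the controls (adjusted p = 3.52e-05), and had 31.6 TPM at 0 h. Fnta, a subunit of the zinc enzyme farnesyltransferase, and Narf, whose product binds prelamin A, had log2 fold changes of -0.24 each (adjusted p = 0.00438 and 0.00119), which did not pass with quantile scaling (-0.09 and -0.07). Pggt1b, which encodes a subunit of the related enzyme that adds a geranylgeranyl group, rose by 0.56 (adjusted p = 6.8e-05). In control against 0 h, Narf was the 1 gene of this list called, with a rise of 1.74 (adjusted p = 1.17e-06), while Lmna rose in the same comparison.

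**Figure D4:**
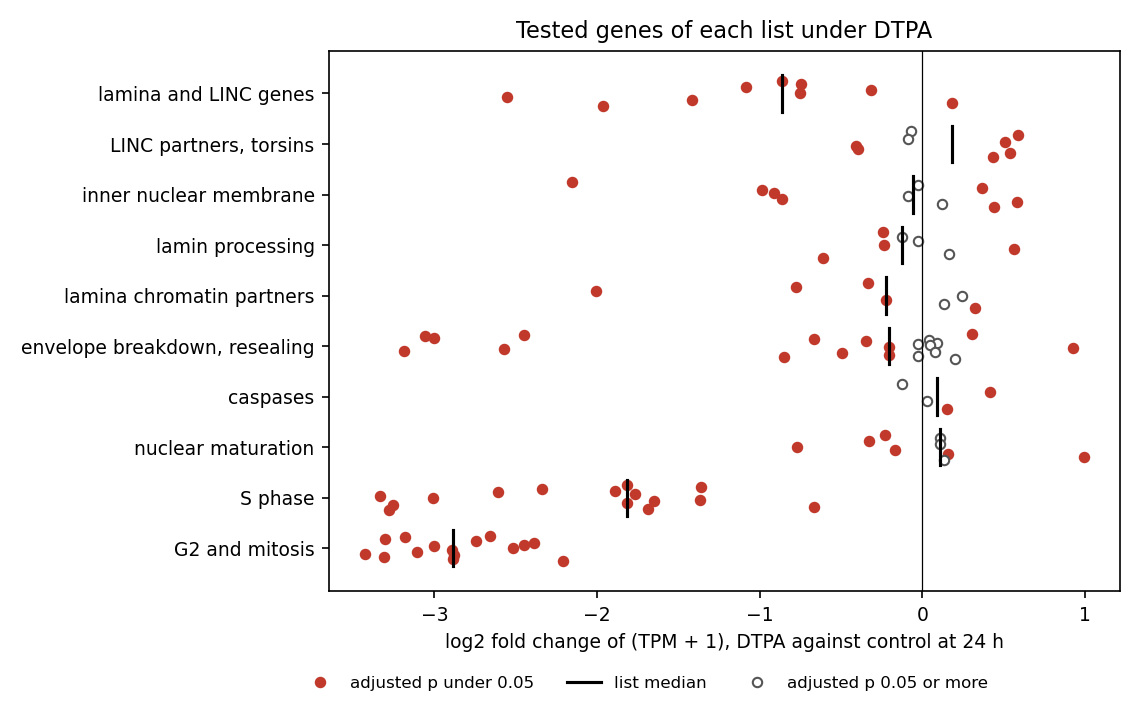
Log2 fold change for DTPA against control at 24 h of each tested gene in 10 gene lists, filled where adjusted p was under 0.05 and open otherwise, with a black bar at the list median. The lamina and LINC genes (median -0.86) lie between the S phase and G2 and mitosis lists (medians -1.82 and -2.88) and the other envelope lists, whose medians run from -0.22 to 0.18.

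Chromatin partners of the lamina were split under DTPA. Of the 7 tested, 1 rose, 4 fell and 2 were not called (median -0.22), where 21.7% of all tested genes rose and 36.4% fell. Cbx5, Cbx3 and Cbx1, which encode the HP1 proteins that LBR and methylated histones bind, all fell. Cbx5 fell by 2.01 to 16.1 ± 0.47 TPM under DTPA, against 67.9 ± 4.18 TPM in the controls (adjusted p = 2.39e-07), with 197 TPM at 0 h. Cbx3 and Cbx1 had log2 fold changes of -0.78 and -0.33 (adjusted p = 3.44e-05 and 0.00305). Rb1, the retinoblastoma gene, whose protein binds A-type lamins, rose by 0.32 (adjusted p = 0.00158). In control against 0 h the 3 HP1 genes fell by 1.53, 1.71 and 1.56 in the order Cbx5, Cbx3, Cbx1.

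Of 20 tested genes of envelope breakdown and resealing, 2 rose, 11 fell and 7 were not called under DTPA (median -0.20). The shares over all tested genes were 21.7% higher and 36.4% lower. The 4 largest falls were in the mitotic genes Plk1, Ccnb2, Cdk1 and Nek2, with log2 fold changes of -3.19, -3.06, -3.00 and -2.58 (adjusted p = 1.82e-06 at most). Cdk1 and a further gene of this list, Ccnb1 (-2.45), are also in the G2 and mitosis list. In control against 0 h, 3 genes rose, 3 fell and 14 were not called, where 15.1% of all tested genes rose and 24.3% fell. Those that rose were Lpin1, a phosphatidate phosphatase gene, the ESCRT gene Chmp4b and Cnep1r1, by 2.62, 1.40 and 1.18. Cnep1r1 encodes a regulatory subunit of the phosphatase that activates lipin. Those that fell were Cdk1, Vrk1 and Ppp2r2a, by 1.74, 1.08 and 1.06. Lpin1 stood at 258 ± 17.5 TPM under DTPA, 135 ± 3.09 TPM in the controls and 21.2 TPM at 0 h.

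Caspases cut lamins in apoptosis. Of 4 caspase genes tested, 2 rose and 2 were not called under DTPA, where 21.7% of all tested genes rose and 36.4% fell. Casp6, the main lamin A protease, had 12.6 ± 0.69 TPM under DTPA and 9.19 ± 0.8 TPM in the controls (adjusted p = 0.00345). Casp9 had a log2 fold change of 0.15 (adjusted p = 0.0226), a call lost without control replicate 2 or DTPA replicate 2 or 3 (0.071 to 0.0813) and with the replicate block (0.0586). In control against 0 h, Casp9 rose by 1.18 (adjusted p = 9.59e-06).

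Of 9 tested genes of chromatin condensation, nuclear opening and enucleation, 2 rose, 4 fell and 3 were not called under DTPA (median 0.11). The shares over all tested genes were 21.7% higher and 36.4% lower. Ube2o, a ubiquitin-conjugating enzyme that clears proteins from reticulocytes in mice, rose by 0.99 to 173 ± 15.6 TPM under DTPA, against 86.3 ± 3.32 TPM in the controls (adjusted p = 1.57e-05). Kmt5a, the histone H4 lysine methyltransferase that condenses erythroid chromatin, fell by 0.77 to 39.9 ± 0.55 TPM under DTPA, against 68.8 ± 1.66 TPM in the controls (adjusted p = 3.95e-06), with 205 TPM at 0 h. Hdac2, a deacetylase needed for erythroblast condensation in mice, fell by 0.33 (adjusted p = 0.0083; -0.19 and adjusted p = 0.0555 with quantile scaling). Cit had a change of -0.23 in log2 units (adjusted p = 0.016), and its call was lost without control replicate 1 (0.053) and with median-of-ratios and quantile scaling (0.0931 and 0.216). In control against 0 h, Hdac5 and Ube2o rose by 2.76 and 1.30, and Hdac2 and Kmt5a fell by 1.86 and 1.56.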

How the data were processed

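The 7 libraries were grouped by their titles. Per the submitters' processing notes, reads were handled with Trimmomatic 0.33, FastQC, HISAT2 2.1.0, featureCounts and edgeR on build mm10; the annotation, gene lengths and strand setting of the counting are not given in the sources used here. Each library has 1 deposited table of TPM, in 55487 rows; 114 symbols on more than 1 row were summed, and none of the 10 genes was among them. Depth was estimated from low values and GENCODE M21 exon lengths, with 98.7% to 99.2% of tested values within 0.1 of a whole read. Such reads carry counting error only, and served for description.

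Fits were made on log2(TPM + 1), a scale on which low genes show too small a change, by limma (3.58.1, R 4.3.3) with a variance trend; p-values are two-sided and Benjamini-Hochberg adjusted over every gene tested. DTPA against control used the 6 libraries at 24 h and kept a gene if 3 or more of them had 1 TPM or more. Comparisons with 0 h used all 7, a minimum mean of 1 TPM in either group, and assumed that the lone library varies like the others; a call also needed a log2 fold change of at least 1 in size. The labels call replicates biological without naming separate cultures, so p-values measure the spread between these libraries. Any 2 libraries of a group were further apart than sampling noise (mean chi-square per gene 2.99 to 9.16), so none was taken as a copy. Fits were also run on simulated data in which few genes were changed, and no result here rests on that run.

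The 10 genes and the 14 other lists (155 genes) were chosen with earlier results of these data known. Named are the 10 genes, up to 4 called genes of a list with the largest change in DTPA against control and in control against 0 h, and the 3 genes nearest in course to each lamin gene. A few more are named to complete a count, and the alternatives below do not cover them for that comparison. Alternatives were other pseudocounts, filters, scalings, no variance trend, a replicate block, all 7 libraries and leaving out each replicate. A few genes of these lists are not reported here.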

Additional observations from a re-analysis of the deposited data

How the results depend on the processing

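For DTPA against control, the 8 falls among the 10 genes passed in all 16 alternatives. The 1 rise, Sun2, passed in 11 of them, so the number of genes called higher was 0 to 1 over the fits that leave out 1 replicate and 0 with the replicate block; the cause was not tested. Same-numbered control and DTPA libraries did not deviate together (correlations -0.01 to 0.024), nor did differently numbered ones (-0.037 to 0.045). With 3 replicates per group, this cannot show whether same-numbered libraries were handled together. The block changed no other call among the 10 and moved all calls from 2415 higher and 4059 lower to 2274 and 3888. Without the minimum fold, control against 0 h gave 5 of the 10 genes higher in place of 3, and 3675 higher and 5188 lower genes in place of 1794 and 2894; DTPA against 0 h gave 3598 and 5594 in place of 1888 and 3318. These rises follow from the rule, which admits smaller changes.

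For DTPA against 0 h, Lemd3 turned positive with median-of-ratios scaling (0.23), quantile normalization (0.38) and scaling without globin genes (0.073), and Sun1 with the first and second of these (0.012 and 0.042). Globins held 6.27% to 8.12% of the TPM under DTPA, 4.71% to 5.11% in the controls and 0.91% at 0 h. No other of the 9 tested genes changed direction in any of the 3 comparisons, nor did the named genes of other lists in DTPA against control or control against 0 h, where they were run. Among 43 genes named in other lists for DTPA against control, 33 of 683 values no longer passed, and among 39 for control against 0 h, 6 of 504. Lmnb2 is limited by depth, and single-library comparisons with 0 h by the missing replicate.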
